A study of Mus musculus with 6 samples.

Results

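The genes described here encode protein tyrosine phosphatases and dual-specificity phosphatases of the mouse. They were taken by gene symbol (Ptpn, Ptpr, Ptp4a and Dusp) from the genes named by a single symbol in the array annotation, and Ptprc, the gene of CD45, was set aside. This gave 50 genes out of 13146 with a named probe set on the array, and for each gene the brightest of its probe sets was used. Ptprcap, which encodes a CD45-associated transmembrane protein and no phosphatase, is among the 50 by its symbol.

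Wild-type cells were compared with leukemic cells in 3 samples each, all sorted as Lin-/Sca1-/cKit+ and all from MF1 mice aged 12 to 16 weeks. The wild-type cells came from bone marrow. The leukemic cells came from the spleens of MF1 mice that had been lethally irradiated and had received hematopoietic progenitors transduced with AE9a, the short splice form of the AML1-ETO fusion protein, whose AML1 part holds the Runt domain that binds DNA. The leukemia samples are labelled by mouse, the wild-type samples by mice in the plural, so whether animals were pooled is not stated. Leukemia, tissue of origin, irradiation, transduction and transplantation differ together between the groups and cannot be told apart.

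Protein tyrosine phosphatases remove phosphate from tyrosine and so oppose, and at some sites release, the action of tyrosine kinases such as Kit, the Janus kinases and the Src family. Nonreceptor members are intracellular, receptor members span the membrane, and the prenylated PRL enzymes are small and attach to membranes by a lipid. Dual-specificity phosphatases also act on phosphothreonine, and their MAP kinase phosphatases switch off ERK, JNK and p38, often as products of the very pathways they limit. In blood cell progenitors SHP-1 (Ptpn6), SHP-2 (Ptpn11) and CD45 are the best known of these enzymes.

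Each array was hybridised from 200 ng of total RNA, and intensities are given on the log2 scale, so a difference of 1 is a 2-fold change. The 6 arrays limit the precision of every value, and levels are compared between arrays for the same probe set, not between genes. Median intensities ran from 71.6 to 79.9. Correlations over all probe sets were 0.992 to 0.994 among wild-type, 0.969 to 0.978 among leukemia and 0.902 to 0.925 across groups. Leukemia replicate 1 stood apart, with an array weight of 0.191 where the other 5 arrays had 0.831 to 2.82. It shared its hybridization date in the file headers, called the run here, with the wild-type arrays. Leukemia replicates 2 and 3 had the other date, on which no wild-type array was hybridised. Date and group are thus partly confounded. Of the sort markers, Kit was above the 40th percentile on all 6 arrays, at 10.40 ± 0.04 in wild-type and 9.64 ± 0.25 in leukemia (SD, n = 3 each). The gene of Sca1, Ly6a, is not analysed here. The arrays measure RNA of a sorted population, in which fewer cells of a kind and less RNA per cell cannot be told apart.

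Promoter sequences are shown for Ptpn22, the largest fall among the phosphatases, and Dusp1, the largest rise among the MAP kinase phosphatases. They were chosen after a search for motifs because both hold matches, while the window of Ptpn13, the largest rise of all, held none. Both windows hold 300 bases around the start site, most of them upstream, and come from RefSeq on GRCm38.p6. Of the 50 genes, 40 had a promoter in that table, with 48 windows in all. The letters TGTGGT, the core that Runt domain proteins bind, and TGACGTCA with its part TGACGT, the cAMP response element, were searched on both strands.

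The Ptpn22 window lies at chr3:103860027-103860326 on the plus strand, and its capitals mark ACCACA, which is TGTGGT on the other strand.

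Ptpn22: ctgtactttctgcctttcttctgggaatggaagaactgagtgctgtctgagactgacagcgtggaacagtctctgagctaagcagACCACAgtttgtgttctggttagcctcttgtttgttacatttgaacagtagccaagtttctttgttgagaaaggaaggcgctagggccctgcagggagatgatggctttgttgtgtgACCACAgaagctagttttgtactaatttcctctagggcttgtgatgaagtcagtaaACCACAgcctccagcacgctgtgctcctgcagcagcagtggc

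The Dusp1 window lies at chr17:26508423-26508722 on the minus strand, and its capitals mark TGACGT and, further on, the full TGACGTCA.

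Dusp1: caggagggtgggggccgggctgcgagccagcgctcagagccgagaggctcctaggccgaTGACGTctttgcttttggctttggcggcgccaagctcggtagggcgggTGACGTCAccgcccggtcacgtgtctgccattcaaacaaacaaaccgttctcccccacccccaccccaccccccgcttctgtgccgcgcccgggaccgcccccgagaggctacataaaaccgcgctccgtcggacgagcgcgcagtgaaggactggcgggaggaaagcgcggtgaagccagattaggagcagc

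The Ptpn22 window held the Runt letters 3 times, starting at bases 86, 203 and 259. Among the windows of the phosphatase genes 4 of 48 (8.33%) held them, against 16.8% of all 32851 windows and 12.4% of the 10258 windows of tested genes. The second Ptpn22 window in the table held none. Of the changed phosphatase genes with a window Ptpn22 alone held these letters, and the other holders were Dusp12, which did not pass the test, and Ptpn5 and Ptpn21, which were too dim to test. TGACGTCA stood at base 108 of the Dusp1 window, and a separate TGACGT stood at base 60. The full element was found in 4 of 48 phosphatase windows (8.33%), against 1.79% of all windows and 3.05% of those of tested genes. Its other holders were Dusp8, Ptpn11 and Ptprs. These matches are descriptions of letters, and binding was not measured.

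The phosphatase genes changed in both directions in nearly equal numbers. Of the 50 genes, 36 were bright enough to test, which meant 3 or more arrays on which the gene reached the 40th percentile of the probe sets there, and 14 were too dim. Of the 36, 12 were higher and 11 lower in leukemia and 13 did not pass (limma, adjusted p under 0.05). The changed genes made up 63.9% of those tested, against 42.1% of all 9715 genes tested. Without Ptprcap, which is no phosphatase, 22 of 35 changed, or 62.9%, 11 higher and 11 lower. Over all genes tested 16.9% were higher and 25.2% lower. Changes reached 2-fold or more in 13 of the 36, or 36.1%, 5 higher and 8 lower, against 19.0% of all genes. Wild-type and leukemia arrays did not overlap for 26 of the 36, or 72.2%, against 59.2% of all genes, and all 23 changed genes were among them. The median change was 0.04 on the log2 scale, against -0.09 over all genes tested. The filter on dim genes passes a gene also when it is bright in 1 group alone, so these shares are of the genes that passed it. With a filter at the 60th percentile 14 of 23 phosphatase genes changed, or 60.9%, 8 higher and 6 lower, against 42.6% of 7495 genes. With no filter 23 of 50 changed, or 46.0%, 11 higher and 12 lower, against 34.4% of 13146 genes.

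**Figure D1:**
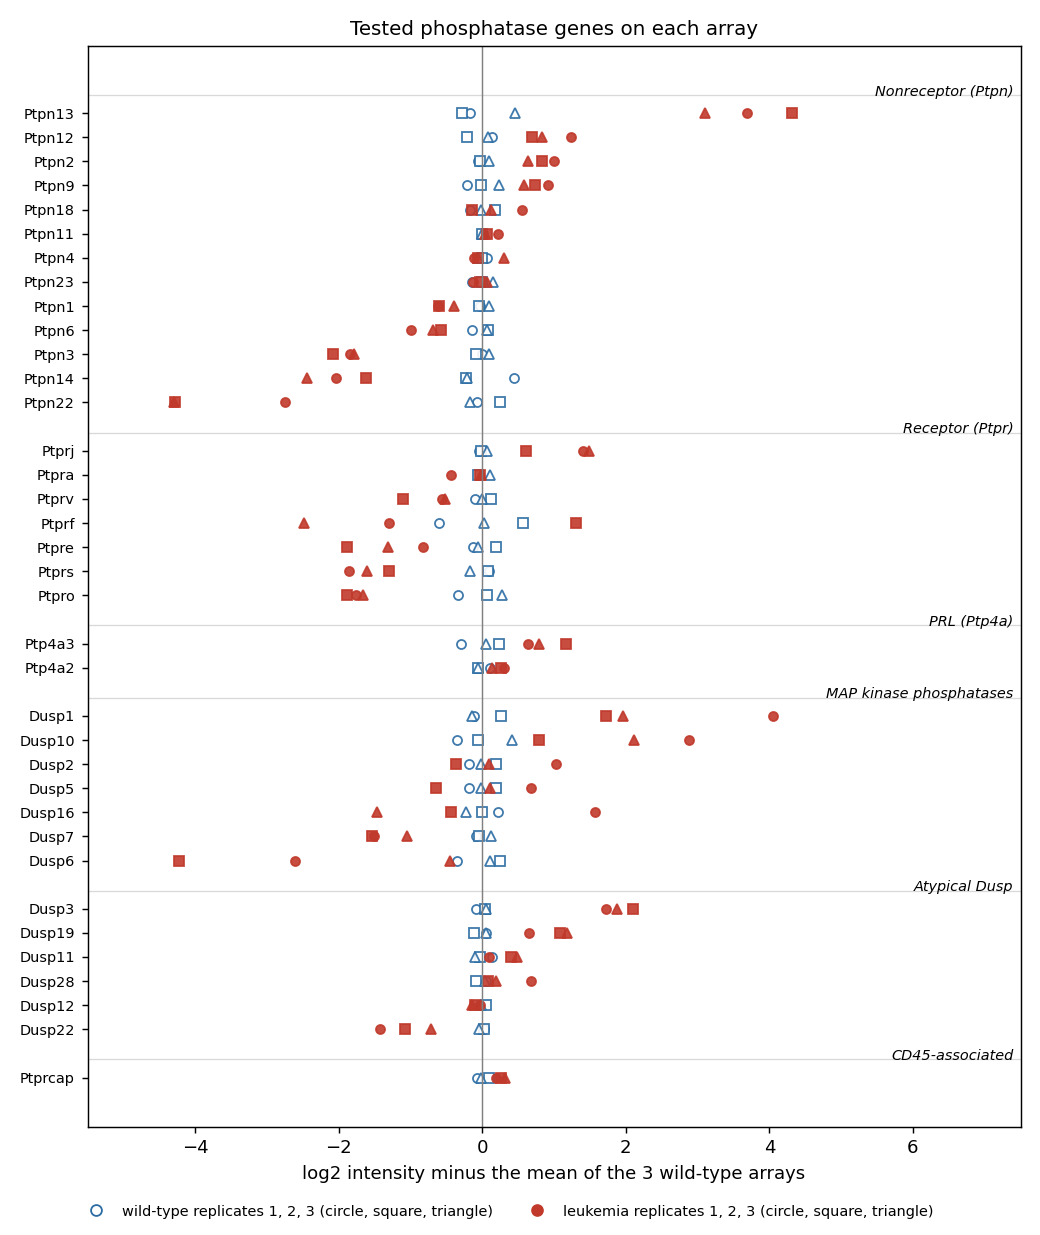
Each of the 36 tested phosphatase genes on each array, as log2 intensity minus the mean of the 3 wild-type arrays, grouped by kind of enzyme. Open symbols are wild-type and filled symbols leukemia, with circle, square and triangle for replicates 1, 2 and 3. Ptpn13 and Ptpn22 lie farthest from the wild-type arrays in either direction, and the leukemia arrays are widely scattered for most MAP kinase phosphatases.

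Among the nonreceptor phosphatases Ptpn13 rose most and Ptpn22 fell most. Of 16 measured genes 13 were tested, of which 4 rose and 5 fell, or 69.2% changed against 42.1% of all genes. Ptpn13, a large scaffold-like phosphatase with FERM and PDZ domains, measured 4.09, 3.99 and 4.72 on wild-type arrays 1 to 3 (mean 4.27 ± 0.40) and 7.96, 8.58 and 7.37 on leukemia arrays 1 to 3 (mean 7.97 ± 0.60), the order used throughout, with means given ± SD over n = 3 arrays. Every leukemia array lay far above every wild-type array, and all wild-type values were below the 40th percentile. The change was 3.70 ± 0.34 (SE, limma adjusted p = 2.52e-04), about 13.0-fold, or 2.91 with 16 added before the log. A further Ptpn13 probe set, too dim to test, differed by 0.02, and with the mean of both the change was 1.86 (adjusted p = 9.46e-04). Ptpn12 (PTP-PEST), which acts on cytoskeletal adaptors, was at 9.59, 9.23 and 9.52 in wild-type (mean 9.45 ± 0.19) and at 10.69, 10.15 and 10.28 in leukemia (mean 10.37 ± 0.28). It rose by 0.92 ± 0.17 (SE, limma adjusted p = 0.00475), without overlap of the groups. Each of its 4 probe sets rose, by 0.62 to 1.00.

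Ptpn2 (TC-PTP), which dephosphorylates JAK1, JAK3 and STAT proteins, rose by 0.82 (limma adjusted p = 0.00157), and the other tested probe sets of the gene gave 0.96 and 1.05. Ptpn9 (MEG2), a phosphatase of secretory vesicles, rose by 0.75 (limma adjusted p = 0.0140). It no longer passed when wild-type replicate 1 (adjusted p = 0.0572) or 2 (adjusted p = 0.0544) was left out. Thus, by their brightest probe sets, the risen nonreceptor genes other than Ptpn13 changed by less than 2-fold.

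Ptpn22 (PEP), a phosphatase of lymphoid and myeloid cells that works with the kinase Csk against Src family kinases, was at 7.11, 7.44 and 7.02 in wild-type (mean 7.19 ± 0.22) and at 4.43, 2.92 and 2.89 in leukemia (mean 3.41 ± 0.88). The groups were far apart, and leukemia replicate 1 was the highest of its group. It fell by 3.78 on the log2 scale (SE 0.42, limma adjusted p = 5.76e-04), which is 13.7-fold, and all leukemia values were below the 40th percentile. With 16 added before the log the change was -2.56. Ptpn14, a FERM-domain phosphatase that binds YAP, was at 8.02, 7.34 and 7.36 in wild-type (mean 7.57 ± 0.39) and at 5.53, 5.95 and 5.13 in leukemia (mean 5.54 ± 0.41). It fell by 2.03 (SE 0.28, limma adjusted p = 0.00144), and its other probe set fell by 1.29. Ptpn3, which like Ptpn13 has FERM and PDZ domains, was at 6.12, 6.03 and 6.22 in wild-type (mean 6.12 ± 0.09) and at 4.28, 4.05 and 4.33 in leukemia (mean 4.22 ± 0.15), below the 40th percentile there. It fell by 1.90 (SE 0.16, limma adjusted p = 1.59e-04). Thus 2 of the tested genes that share FERM and PDZ domains moved in opposite directions, while Ptpn4, the closest relative of Ptpn3, gave 0.04 (limma adjusted p = 0.833, 95% interval -0.32 to 0.41).

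Of the SH2-domain phosphatases Ptpn6 fell and Ptpn11 did not pass. Ptpn6 (SHP-1), the main inhibitory phosphatase of blood cells, was at 9.73, 9.95 and 9.93 in wild-type (mean 9.87 ± 0.12) and at 8.88, 9.29 and 9.19 in leukemia (mean 9.12 ± 0.22). It fell by 0.75 (SE 0.14, limma adjusted p = 0.00478), or 1.69-fold, and its other probe set fell by 0.39. Ptpn11 (SHP-2), which carries signals from receptors to RAS and ERK, was at 10.09, 10.08 and 10.09 in wild-type (mean 10.09 ± 0.01) and at 10.31, 10.16 and 10.12 in leukemia (mean 10.20 ± 0.10). Its change was 0.11 ± 0.08 (SE, limma adjusted p = 0.319), with a 95% interval of -0.09 to 0.31, although every leukemia array lay above every wild-type array. Whether the changes of Ptpn6 and Ptpn11 differ from each other was not tested. Ptpn1 (PTP1B), which acts on the insulin receptor and JAK2, fell by 0.54 (limma adjusted p = 0.0112) and by 0.98 with its other probe set. Leaving out wild-type replicate 3 ended its call (change -0.49, adjusted p = 0.0585).

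Ptpn18 gave 0.18 (limma adjusted p = 0.468) with its bright probe set and -0.99 with a dimmer one that passed (adjusted p = 0.00452), and its probe sets thus gave opposite signs. Ptpn23 (HD-PTP), a protein of endosomal sorting, gave -0.03 (limma adjusted p = 0.879). Ptpn5, Ptpn20 and Ptpn21 were too dim to test.

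**Figure D2:**
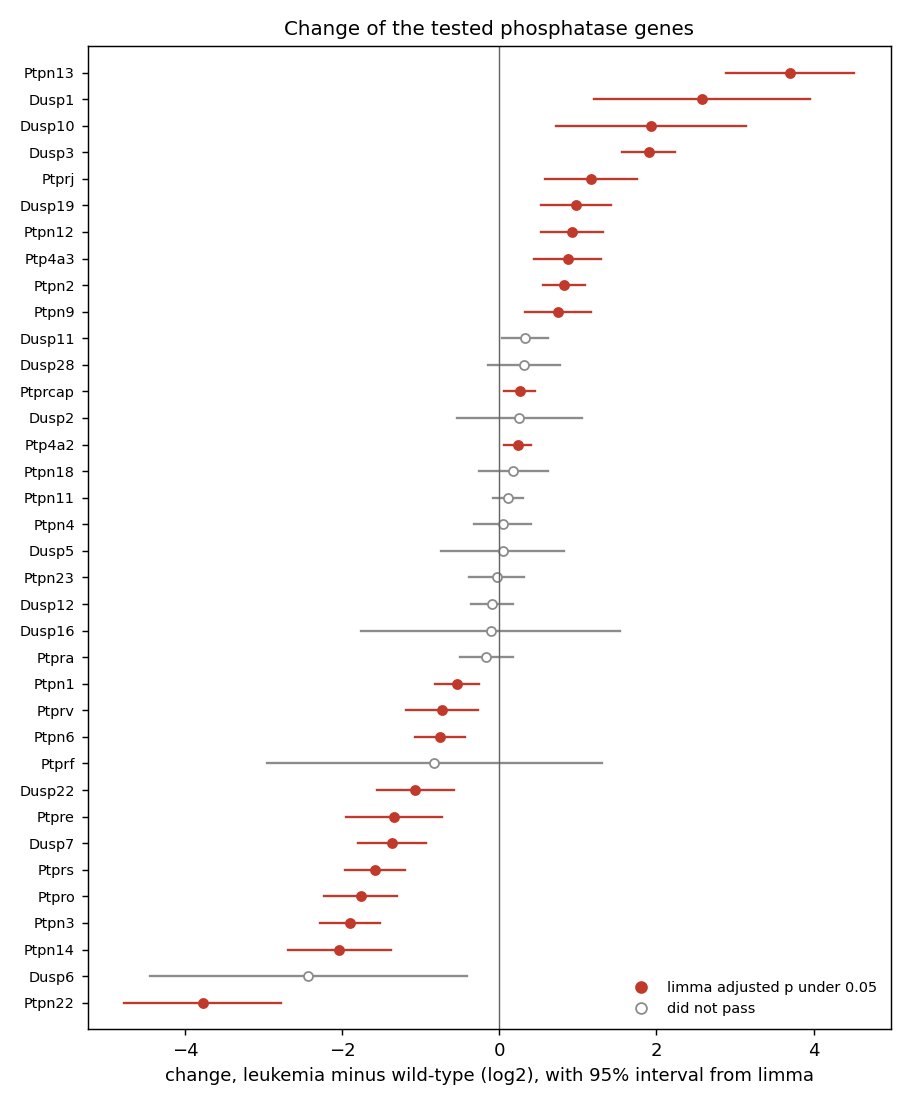
Log2 change (leukemia minus wild-type) of the 36 tested phosphatase genes, with the 95% interval from limma. Filled points passed at an adjusted p under 0.05 and open points did not; the changes run from -3.78 for Ptpn22 to 3.70 for Ptpn13, and Dusp6 and Ptprf have wide intervals.

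Of the receptor phosphatases 13 were measured and 7 tested, of which 1 rose and 4 fell, where 16.9% of all tested genes were higher and 25.2% lower. Their median change was -0.83, against -0.09 over all genes. Ptprj (CD148), which with CD45 keeps Src family kinases active in blood cells, was at 6.36, 6.38 and 6.48 in wild-type (mean 6.41 ± 0.06) and at 7.80, 7.02 and 7.90 in leukemia (mean 7.57 ± 0.48). It rose by 1.17 ± 0.25 (SE, limma adjusted p = 0.00925), and the groups did not overlap. A further Ptprj probe set, too dim to test, differed by 0.21, with overlap of the groups. Ptprc, set aside by the rule, fell by 7.64 (limma adjusted p = 4.00e-06), from 10.78 to 3.14, and by 6.16 with 16 added before the log, all leukemia values being below the 40th percentile. The RNA levels of CD148 and CD45 thus moved in opposite directions. Ptpra, a further receptor phosphatase that acts on Src kinases, gave -0.16 (limma adjusted p = 0.378, 95% interval -0.50 to 0.17).

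Ptpre, the closest relative of Ptpra and a gene of macrophages and osteoclasts among other cells, was at 9.84, 10.16 and 9.92 in wild-type (mean 9.97 ± 0.16) and at 9.14, 8.09 and 8.66 in leukemia (mean 8.63 ± 0.53). It fell by 1.34 (SE 0.26, limma adjusted p = 0.00608), and its other probe set fell by 1.49. A block for the run, under which leukemia replicate 1 alone is set against wild-type, gave -0.83. Ptprs, a receptor for proteoglycans, was at 10.28, 10.27 and 10.01 in wild-type (mean 10.19 ± 0.15) and at 8.34, 8.89 and 8.58 in leukemia (mean 8.60 ± 0.28). It fell by 1.59 (SE 0.16, limma adjusted p = 3.72e-04), while a dimmer probe set gave -0.52 (adjusted p = 0.0729) and the mean of both -1.05. Ptpro, known from podocytes and macrophages, was at 6.17, 6.57 and 6.77 in wild-type (mean 6.50 ± 0.31) and at 4.75, 4.62 and 4.84 in leukemia (mean 4.74 ± 0.11), below the 40th percentile there. It fell by 1.77 (SE 0.20, limma adjusted p = 5.71e-04). In all 3 genes the groups did not overlap.

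Ptprv, a receptor phosphatase known from bone-forming cells and testis, fell by 0.73 (limma adjusted p = 0.0218). That call ended when wild-type replicate 1, 2 or 3 was left out (adjusted p = 0.0556, 0.0849 and 0.0736) and with the run as a block (0.102). Ptprf (LAR), a phosphatase of cell contacts, was scattered in leukemia, at 4.86, 7.47 and 3.68, against 5.56, 6.74 and 6.19 in wild-type. It did not pass (change -0.83, limma adjusted p = 0.485), but gave -1.90 (adjusted p = 0.0208) without leukemia replicate 2. Ptprb, the vascular endothelial phosphatase, was at 3.27 to 3.61 over the 6 arrays, and Ptprd, Ptprg, Ptprk, Ptprm and Ptprz1 were likewise too dim to test.

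Both prenylated phosphatases measured with a probe set of a single symbol were higher. Ptp4a3 (PRL-3) was at 9.86, 10.40 and 10.21 in wild-type (mean 10.16 ± 0.27) and at 10.80, 11.33 and 10.95 in leukemia (mean 11.03 ± 0.27). It rose by 0.87 ± 0.18 (SE, limma adjusted p = 0.00831), a call lost with the run as a block (0.64, adjusted p = 0.0562). Ptp4a2 (PRL-2) rose by 0.23 (limma adjusted p = 0.0398) with its brightest probe set. It did not pass when 1 of these was left out: wild-type replicate 2 (adjusted p = 0.130), wild-type replicate 3 (0.136), leukemia replicate 1 (0.0715), leukemia replicate 2 (0.0903). Nor did it pass without the intensity trend (0.127). The further 3 probe sets of Ptp4a2 gave 0.32, 0.72 and 1.18, and with the mean of all 4 the change was 0.61 (adjusted p = 0.00343). Ptprcap rose by 0.26 (limma adjusted p = 0.0489), a call that ended when wild-type replicate 1, 2 or 3 (adjusted p = 0.163, 0.0682 and 0.146) or leukemia replicate 2 or 3 (0.0991 and 0.124) was left out.

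The MAP kinase phosphatases varied most among the kinds of enzyme, by the median SD over the leukemia arrays. Of 9 measured 7 were tested, of which 2 rose, 1 fell and 4 did not pass. The changed share of 42.9% was close to the 42.1% of all tested genes. Their median SD was 1.06 in leukemia and 0.22 in wild-type, against 0.22 and 0.11 over all genes tested. The leukemia arrays spanned more than 1 log2 for 6 of the 7, against 13.8% of all genes and 4 of the 29 other tested phosphatase genes. Leukemia replicate 1 was the highest leukemia array for 5 of the 7, namely Dusp1, Dusp2, Dusp5, Dusp10 and Dusp16, against 35.6% of all genes.

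Of the nuclear enzymes that immediate-early signals induce, Dusp1 (MKP-1), which acts on p38 and JNK, was at 6.93, 7.31 and 6.90 in wild-type (mean 7.05 ± 0.23) and at 11.10, 8.77 and 9.002 in leukemia (mean 9.63 ± 1.28). All leukemia arrays lay above all wild-type arrays, replicate 1 by the widest margin. Dusp1 rose by 2.58 ± 0.58 (SE, limma adjusted p = 0.0118), or 5.98-fold. Without leukemia replicate 1 the change was 1.84 (adjusted p = 4.43e-04), and with the run as a block, which rests on that array, it was 4.06 (adjusted p = 1.07e-04). Dusp2 (PAC-1) was at 8.11, 8.49 and 8.28 in wild-type and at 9.32, 7.93 and 8.39 in leukemia and did not pass (change 0.25, limma adjusted p = 0.570). Dusp5, specific for ERK, gave 0.04 (limma adjusted p = 0.923, 95% interval -0.74 to 0.83). With the run as a block Dusp2 gave 1.02 and passed (adjusted p = 0.0112) on the value of leukemia replicate 1.

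The cytoplasmic ERK phosphatases were lower or scattered. Dusp6 (MKP-3), a feedback inhibitor that ERK signalling induces, was at 7.53, 8.14 and 7.99 in wild-type (mean 7.89 ± 0.32) and at 5.28, 3.66 and 7.43 in leukemia (mean 5.46 ± 1.89). The groups did not overlap, but leukemia replicate 3 lay close to wild-type. The change of -2.43 did not pass (SE 0.85, limma adjusted p = 0.0566), and without leukemia replicate 3 it was -3.42 (adjusted p = 0.00269). It passed also with array weights (-2.50, adjusted p = 0.0285) and with 16 added before the log (-1.92, adjusted p = 0.0442). Dusp7, its relative, was at 7.11, 7.16 and 7.33 in wild-type (mean 7.20 ± 0.11) and at 5.69, 5.66 and 6.15 in leukemia (mean 5.83 ± 0.27). It fell by 1.36 (SE 0.18, limma adjusted p = 0.00131), and its other tested probe set fell by 1.19. Dusp9 was too dim to test.

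Among the phosphatases that prefer JNK and p38, Dusp10 (MKP-5) was at 4.90, 5.19 and 5.67 in wild-type (mean 5.26 ± 0.38) and at 8.14, 6.05 and 7.37 in leukemia (mean 7.19 ± 1.06). It rose by 1.93 ± 0.51 (SE, limma adjusted p = 0.0217). The call ended on leaving out wild-type replicate 1 (adjusted p = 0.0775), wild-type replicate 2 (0.0724) or leukemia replicate 3 (0.0513). Dusp16 (MKP-7) was at 6.44, 6.21 and 5.99 in wild-type and at 7.79, 5.78 and 4.75 in leukemia, the first above and the others below every wild-type array. Its change was -0.11 (limma adjusted p = 0.910), and with the run as a block it turned to 1.57 (adjusted p = 0.0199) on the value of leukemia replicate 1. Dusp8 was too dim to test.

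**Figure D3:**
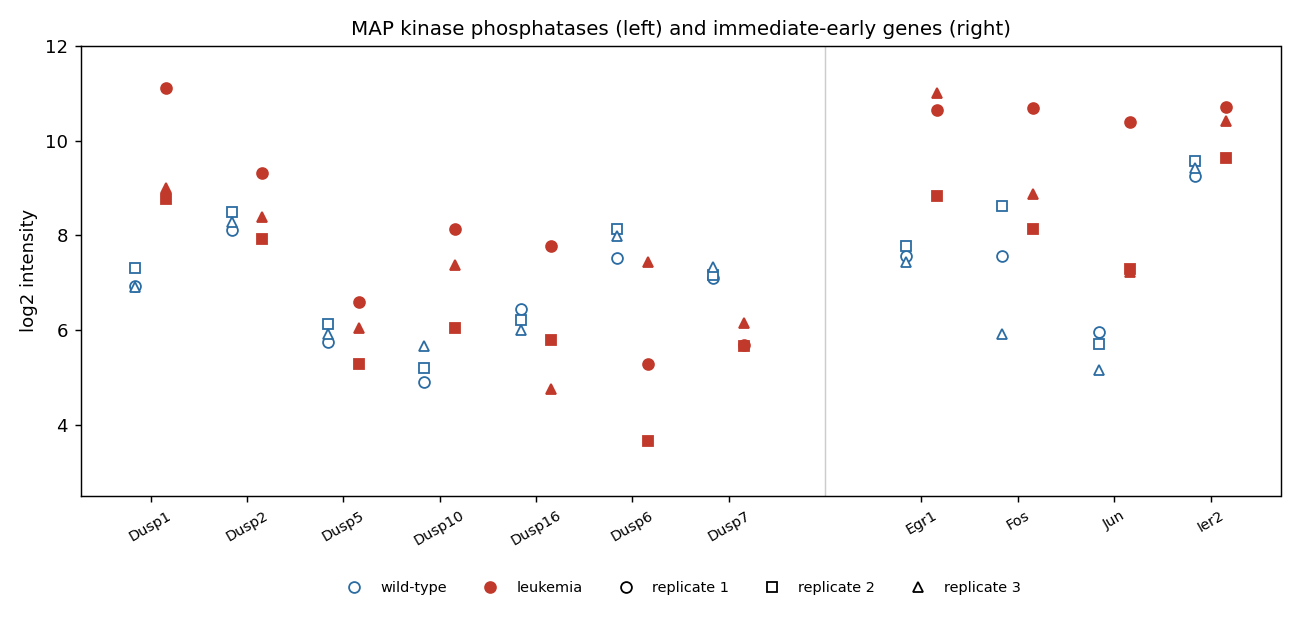
Log2 intensity of the 7 tested MAP kinase phosphatases (left) and of 4 immediate-early genes (right) on each array, with open symbols for wild-type, filled symbols for leukemia, and circle, square and triangle for replicates 1, 2 and 3. Leukemia replicate 1 is the highest leukemia array for Dusp1, Dusp2, Dusp5, Dusp10, Dusp16, Fos, Jun and Ier2, and Egr1 is highest on replicate 3; heights are comparable within a gene, not between genes.

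Immediate-early genes, which growth factors and cell stress induce within minutes, also varied among the leukemia arrays. Jun was at 5.97, 5.70 and 5.16 in wild-type and at 10.39, 7.29 and 7.22 in leukemia, highest on replicate 1. Fos, chosen like Ier2 after its values were seen, was at 7.56, 8.62 and 5.91 in wild-type and at 10.68, 8.13 and 8.88 in leukemia, where the groups overlapped. Egr1 was at 7.56, 7.79 and 7.43 in wild-type and at 10.65, 8.82 and 11.01 in leukemia. Values of RNA control probe sets also differed between the groups. Both measures below were higher on every leukemia array than on any wild-type array, and highest on leukemia replicate 1. The 5' probe set of 18S ribosomal RNA ran from 7.77 to 9.41 on the wild-type arrays and was 12.35, 11.25 and 11.14 on leukemia arrays 1 to 3. The Gapdh difference between its 3' and 5' probe sets was -0.14 to -0.06 in wild-type and 0.31, 0.08 and 0.01 in leukemia. The part of what these measures reflect in the changes given here, those of Dusp1 and Dusp10 among them, was not tested.

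Of the atypical dual-specificity phosphatases, small enzymes without the MAP kinase docking domain, 9 were measured and 6 tested. Of the 6, 2 rose and 1 fell, or 50.0% changed against 42.1% of all tested genes. Dusp3 (VHR), which acts on ERK and JNK, was at 6.92, 7.04 and 7.06 in wild-type (mean 7.004 ± 0.08) and at 8.73, 9.10 and 8.88 in leukemia (mean 8.90 ± 0.18), with little scatter in either group. It rose by 1.90 ± 0.14 (SE, limma adjusted p = 9.22e-05), or 3.73-fold, and its other probe sets rose by 1.17 and 1.94. Dusp19 (SKRP1), linked to the JNK pathway, was at 5.37, 5.21 and 5.38 in wild-type (mean 5.32 ± 0.10), all below the 40th percentile, and at 5.97, 6.41 and 6.50 in leukemia (mean 6.29 ± 0.28). It rose by 0.97 ± 0.19 (SE, limma adjusted p = 0.00642). Its other probe sets, too dim to test, gave 0.54 and -0.13. Dusp22 (JKAP), a phosphatase that dampens T cell receptor signalling through Lck, was at 5.97, 5.97 and 5.90 in wild-type (mean 5.95 ± 0.04) and at 4.53, 4.87 and 5.24 in leukemia (mean 4.88 ± 0.35), below the 40th percentile there. It fell by 1.07 (SE 0.21, limma adjusted p = 0.00648).

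Dusp11, which acts on RNA rather than protein, gave 0.32 (limma adjusted p = 0.0731) and passed without leukemia replicate 1 (0.44, adjusted p = 0.00842), on centring of the arrays (0.40, adjusted p = 0.0219), by the average over its probe sets (0.33, adjusted p = 0.0333) and with array weights (0.42, adjusted p = 0.0136). Dusp28 gave 0.32 (limma adjusted p = 0.221) without overlap of the groups. Dusp12 gave -0.09 (limma adjusted p = 0.526, 95% interval -0.36 to 0.17).

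Of the 14 genes that were too dim to test, 13 lay below the 40th percentile on all 6 arrays, and Dusp9 lay above it on 1 leukemia array. Their differences ran from -0.40 to 0.22. The widest were Dusp18 (from 3.12 to 2.72), Ptprd (from 4.13 to 3.87), Dusp23 (from 4.41 to 4.18), Ptprm (from 3.56 to 3.33), Ptprg (from 2.62 to 2.84) and Ptpn21 (from 4.12 to 3.93). Dusp21, a further atypical member, was at 3.42 to 3.78. Arrays of the groups were fully separate in 4 of these 14, namely Dusp18, Dusp23, Ptprg and Ptprz1. Among all tested genes 59.2% were separate, and the share among all dim genes was not counted. In the fit without the filter on dim genes Dusp18 passed as lower (change -0.40, limma adjusted p = 0.0180), at values below the 40th percentile in both groups, and the other 13 did not pass. At this brightness that does not show that their RNA was unchanged.

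The genes measured with several probe sets allowed the direction to be checked on the array itself. Of the 50 genes 25 had more than 1 probe set, and 87 probe sets were measured in all. Of the 23 changed genes 10 had a further probe set that was bright enough to test. In 9 of these a further probe set passed in the same direction, in 0 one passed in the opposite direction, and in Ptprs none passed. Probe sets of a gene share the same RNA samples and are not replicates.

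**Figure D4:**
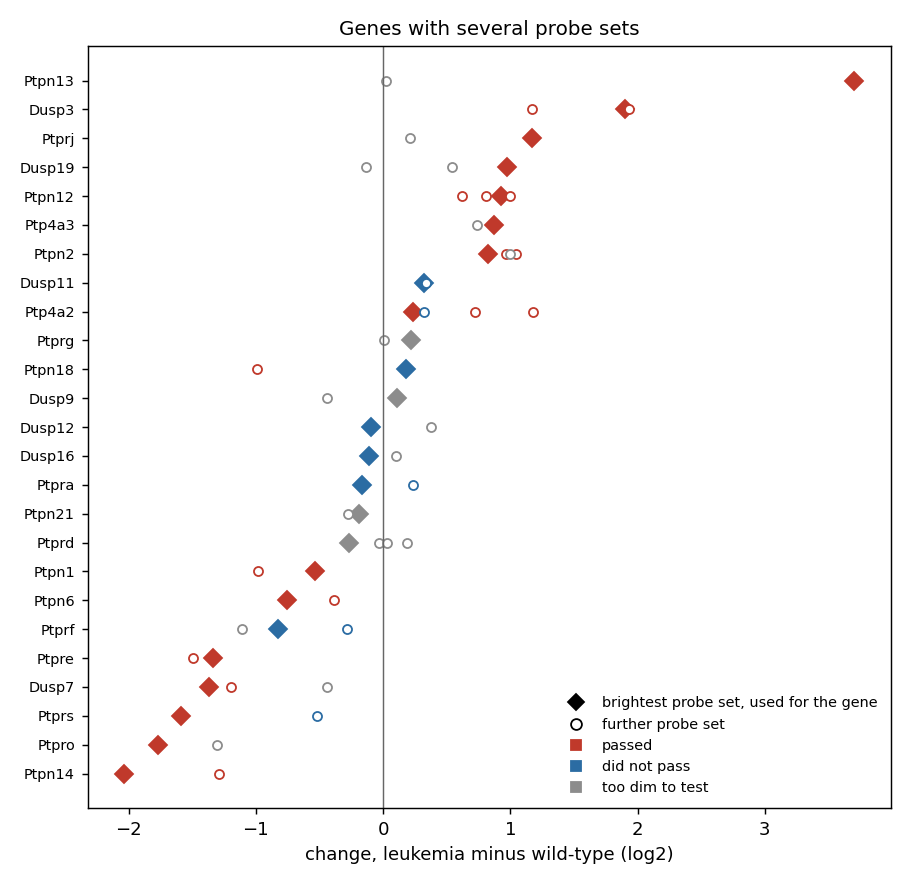
Log2 change (leukemia minus wild-type) of each probe set of the 25 phosphatase genes that have several. Diamonds are the brightest probe sets, which stand for the gene, and circles are further ones, coloured by whether they passed, did not pass or were too dim to test. Those of Ptpn12, Ptpn2 and Dusp3 lie together on the higher side, while a circle of Ptpn18 that passed lies at -0.99, away from its diamond at 0.18.

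Genes of the pathways around these phosphatases, with pathway outputs, docking proteins, tyrosine kinases and related phosphatases, were followed in lists of their own. They are not lists of targets of these enzymes. All are set against the 42.1% of all genes that changed. Of 17 tested ERK pathway genes 4 rose and 3 fell, or 41.2% changed, with a median of -0.08. The GTPase-activating protein Rasa1 rose by 1.11, the adaptor Grb2 by 0.96 and the GTPase Rras by 0.81, while the exchange factor Sos1 fell by 1.32, the scaffold Ksr1 fell by 0.74 and the adaptor Shc1 fell by 0.59. The calls of Rasa1 (adjusted p = 0.0609 and 0.0601) and Ksr1 (0.0531 and 0.0605) ended without wild-type replicate 2 or 3 respectively. That of Sos1 ended without wild-type replicate 1, 2 or 3 (0.102, 0.0842 and 0.102), and that of Shc1 without wild-type replicate 3 (0.0520). With the mean of probe sets Sos1 (-0.56, adjusted p = 0.0927) and Shc1 (-0.35, adjusted p = 0.201) did not pass while Ksr1 gave -0.36 and Grb2 0.59. Sos1 gave -0.83 without leukemia replicate 1 and -2.32 with the run as a block, under which the call of Rasa1 ended (adjusted p = 0.0611). The kinases that activate ERK, Map2k1 (-0.11) and Map2k2 (-0.08), chosen after their values were seen, did not pass. The count of fallen genes in this list was 0 without wild-type replicate 3, 5 without leukemia replicate 1 and 1 without wild-type replicate 2, and that of risen genes 2 without wild-type replicate 2 or 3.

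Of 11 tested genes that report or limit ERK output 4 rose and 2 fell, or 54.5% changed, with a median of 0.87. Phlda1 rose by 4.66, Egr1 by 2.57 and Ier3 by 1.96, whereas Ccnd1, the gene of cyclin D1, fell by 2.17 and Myc fell by 1.07. The call of Myc, and with it 1 of the 2 falls, ended without wild-type replicate 1, 2 or 3 (adjusted p = 0.0939, 0.0878 and 0.117), and its change was -0.66 without leukemia replicate 1 and -1.91 with the run as a block. The ERK feedback inhibitors Spry2 (0.90), Spred1 (0.87) and Spry1 (0.09), named after their values were seen, did not pass. Of 18 JNK and p38 pathway genes 3 rose and 6 fell, or 50.0% changed, with a median of -0.21. Map3k1, a kinase upstream of JNK, fell by 3.32, Mapkapk2, the kinase downstream of p38, fell by 3.02 and Map4k1 fell by 1.11. All leukemia values of Map3k1 were below the 40th percentile, and with 16 added before the log its change was -2.09. Jun rose by 2.69, Map2k4 by 0.85 and Map2k3 by 0.36. The call of Jun ended without wild-type replicate 1, 2 or 3 (adjusted p = 0.0794, 0.0961 and 0.117), that of Map2k4 without wild-type replicate 1 or 2 (0.0610 and 0.0613), and that of Map2k3 in 11 alternatives, each wild-type array left out among them. The count of risen genes was thus 0 without wild-type replicate 1 or 2 and 1 without wild-type replicate 3. Without leukemia replicate 1 the change of Jun was 1.64, and with the run as a block Jun gave 4.78 and Map2k4 0.36. The kinases that Dusp1 and Dusp10 act on, Mapk8 (0.12), Mapk9 (0.25) and Mapk14 (-0.17), chosen in the same way, did not pass.

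Proteins that dock SHP-1 or SHP-2 mostly fell. Of 14 tested 3 rose and 9 fell, or 85.7% changed, with a median of -1.13. Pecam1, an adhesion receptor with inhibitory motifs, fell by 4.61, Milr1 fell by 3.31 and Cd300a fell by 3.09, all inhibitory receptors of blood cells. In leukemia all 3 were below the 40th percentile throughout, and with 16 added before the log Milr1 gave -2.13. The adaptor Gab2, which recruits SHP-2, rose by 2.13, and Irs2 rose by 1.24. Pilrb1 rose by 3.90 and is known as an activating relative of the inhibitory receptor that docks SHP-1, so it does not do what the name of the list says. The call of Irs2 ended without wild-type replicate 1, 2 or 3 (adjusted p = 0.0645, 0.0971 and 0.0889) or leukemia replicate 3 (0.0571), and with the run as a block (0.51, adjusted p = 0.223). With the filter at the 60th percentile 4 genes of this list fell. Of 26 tyrosine kinases 6 rose and 11 fell, or 65.4% changed, with a median of -0.42. Csf1r fell by 6.27, Flt3 fell by 3.95 and Matk fell by 2.84, while Tek rose by 2.51 (1.41 with the run as a block), Fyn by 1.23 and Jak2 by 0.71. Csk, the kinase with which Ptpn22 works and which was chosen after its values were seen, fell by 1.16. Without probe sets of shared endings 7 kinases fell.

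Of 26 other genes of the protein tyrosine phosphatase superfamily 5 rose and 7 fell, or 46.2% changed, with a median of 0.11. Cdc25b, a phosphatase that activates cyclin-dependent kinases, rose by 2.89, Cdkn3 by 0.98 and Mtmr12 by 0.76. Tns1 fell by 2.27, Sbf1 fell by 1.41 and Cdc14a fell by 1.06. The call of Cdc14a ended without wild-type replicate 1, 2 or 3 (adjusted p = 0.0874, 0.103 and 0.111), on centring (0.0519), on quantile normalization (0.0547) and with the run as a block (-0.61, adjusted p = 0.250). Its change was -0.68 without leukemia replicate 2. Without any one of these wild-type arrays 3 genes of this list rose and 3 fell, and 4 fell without leukemia replicate 2. With the mean of probe sets 2 genes of the list fell, and with arrays centred on the median 3 did.

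Marker genes of other cells and of committed progenitors were also compared between the groups, as sums of linear intensity over each list. For 6 measured T and NK cell genes the sum was 2364 to 3043 in wild-type and 253 to 290 in leukemia, with Cd8a and Gzma below the 40th percentile on every array. Nkg7 alone made up 90.2% to 92.6% of the wild-type sum, and Nkg7 and Il7r were the members bright enough to test, both lower. For 11 monocyte and macrophage genes the sum was 2447 to 3935 against 313 to 461, with Itgam, Mrc1 and Adgre1 below the 40th percentile throughout. Csf1r alone made up 47.1% to 50.6% of the wild-type sum. For 8 B cell genes the sum was 850 to 1530 against 217 to 378, with Ms4a1 and Ebf1 below the 40th percentile throughout. Ighm alone made up 57.7% to 68.0% of the wild-type sum. For 8 mature neutrophil genes the sum was 193 to 764 against 139 to 146, and 0 were bright enough to test. All 8 were below the 40th percentile on every leukemia array, and Cd177, Mmp8 and Mmp9 also on every wild-type array. For 10 endothelial and stromal genes the sum was 674 to 798 against 170 to 281. Cdh5, Col1a1, Col3a1 and Dcn were below the 40th percentile throughout. In the other direction, 10 mast cell and basophil genes summed to 5507 to 6277 in wild-type and 14046 to 26583 in leukemia. Of its 8 tested members 5 rose, among them Ms4a2 and Hdc, Cpa3 and Gata2 did not pass, and Mcpt8 fell by 5.67. For 10 genes of committed progenitors the sum was 36850 to 44763 against 5003 to 5596, with all 10 lower. This list holds the sort marker Kit and does not mark other cells. For 7 erythroid genes it was 4611 to 8007 against 6406 to 9660. Of these, Alas2, Slc4a1, Epb42 and Rhag were higher, while Epor, Ermap and Klf1 did not pass. Ermap alone made up 43.0% to 45.5% of the wild-type sum. For 9 megakaryocyte genes the sum was 2103 to 2365 against 1296 to 2138. The 8 tested members went both ways, with Gp5, Rab27b and Treml1 higher and Pf4, Ppbp, Itga2b, Vwf and Gp9 lower. The part of these cell types in the falls of Ptpn22, Ptpn6, Ptpre and Ptpro and in the rise of Ptpn13 was not tested.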

How the data were processed

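Lin-/Sca1-/cKit+ cells of 3 wild-type and 3 leukemia samples were measured on Affymetrix Mouse430_2 arrays. The authors deposited linear intensity values, made with RMA per the submitters' processing notes, with version and settings not given in the sources used here. Log2 was taken with no pseudocount. The platform annotation gave 1 gene symbol to 23750 of 28821 probe sets and several to 677 (4 with a phosphatase symbol, not used), left 4355 without and held 39 controls. The gene IDs of all 50 phosphatase genes were found in RefSeq's gene table (GRCm38.p6), where 0 symbols differed. The array records gave, per the file headers, 2 hybridization dates, called runs here, and 1 chip lot. All value columns were mapped, with 0 left over.

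The brightest probe set stood for a gene. Genes at or above the 40th percentile of their array on at least 3 arrays were tested with limma 3.58.1 in R 4.3.3 (two-sided, eBayes with the variance following intensity, 4 residual degrees of freedom), with p-values adjusted by Benjamini-Hochberg over the 9715 genes and a threshold of 0.05. The test had been chosen on the assumption of log2 values. The fit was tested on simulated data. The phosphatase genes and all lists were chosen with earlier results of these data known. Genes named in full were the 8 largest rises and 8 largest falls past the threshold with groups that did not overlap, Ptpn6, Ptpn11, Dusp1 and Dusp6, and any gene with tested probe sets passing in opposite directions. For each further list these were up to 3 rises and 3 falls, and for untested genes the 6 widest differences. The labels number the mice of the leukemia samples but not those of the wild-type samples, so the p-values reflect just the spread among the 6 samples, which may be technical. Alternatives covered the filter, the probe set rule, scaling, 16 added before the log, the variance trend, array weights, the replicate number and the run as blocks, and each array left out. Figures were drawn with matplotlib 3.10.9.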

Additional observations from a re-analysis of the deposited data

How the results depend on the processing

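Of the 23 changed phosphatase genes 16 kept their call in every alternative in which they were tested and 7 lost it in at least 1 (Dusp10, Ptp4a2, Ptp4a3, Ptpn1, Ptpn9, Ptprcap and Ptprv), while 0 turned direction in any. Of the 13 that did not pass, 8 passed in the same direction in at least 1 alternative. For Dusp28 (0.68), Ptpn11 (0.22), Ptpn18 (0.55) and Ptpra (-0.44) this was with the run as a block alone. Under it Dusp16 turned from -0.11 to 1.57. That block leaves leukemia replicate 1 as the sole leukemia array set against wild-type within a run. The stricter filter gave 14 changed phosphatase genes of 23 tested, 6 of them lower, since fewer genes were tested. Leaving out 1 array gave 18 to 23 changed phosphatase genes, 8 to 12 higher and 9 to 12 lower, and 2647 (without wild-type replicate 3) to 4716 (without leukemia replicate 1) changed genes in all, against 4089. With the replicate block 22 phosphatase genes and 3565 genes in all changed, and Ptprcap (adjusted p = 0.0934), Irs2 (0.0504) and Map2k3 (0.0717) did not pass. Same-numbered samples did not deviate together (correlations -0.07, 0.05 and 0.03). These 3 values show no shared deviation by number, but cannot exclude that samples were handled in pairs. Dim values limit the sizes of 2 risen and 4 fallen genes, which lay below the 40th percentile on every array of their lower group.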
